A study of Mus musculus with 6 samples.

Results

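The 10 genes described here encode the enzymes and regulators that build fatty acids from citrate and lengthen or desaturate them: Acly, Acaca, Fasn, Me1, Thrsp, Scd1, Elovl3, Elovl5, Elovl6 and Srebf1. They were chosen by gene symbol as a functional group, and a probe set counted as theirs where the platform annotation gave no other symbol. All 10 were measured, through 12 of 21789 probe sets with a single symbol, and they are 10 of 19938 genes tested. The samples were GFP-positive liver cells, called replicating in the labels, and GFP-negative liver cells, called quiescent. Both fractions were sorted from the same 3 livers, those of weaned CyclinB1-GFP transgenic mice at an age of 3.5 weeks, and each fraction has 3 arrays. All cells of both groups therefore carry the transgene, a green fluorescent reporter named after the mitotic cyclin B1. The labels name neither its promoter nor a treatment.

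In the liver, cytosolic citrate is cleaved to acetyl-CoA, carboxylated to malonyl-CoA and condensed to palmitate, with NADPH as the reductant. Elongases of the endoplasmic reticulum then add carbon pairs, and desaturases introduce double bonds. Hepatocytes turn the pathway on after feeding, largely through the transcription factor encoded by Srebf1 and a carbohydrate-responsive factor, and weaning from fatty milk to a carbohydrate-rich diet is a known time of rising lipogenesis in rodents.

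Values are log2 of the deposited array intensities. Array medians lay between 4.60 and 4.74 on this scale, and 6 arrays limit the precision. Hepatocyte markers were bright in every array (Alb between 13.2 and 13.3), and the summed intensity of 8 measured hepatocyte markers ran from 50069 to 53193 in GFP-positive and from 53302 to 58480 in GFP-negative arrays. Array numbers are shared between the groups and were taken to mark the mouse, because both fractions came from the same livers. Xist, the X-inactivation transcript, read 9.80 in GFP-positive 2 and 9.03 in GFP-negative 2, against 3.73 to 4.04 in the other 4 arrays, and the Y-linked Eif2s3y, Kdm5d and Uty were low in both arrays of number 2. Sex and number 2 thus cannot be told apart. Each log2 difference is the GFP-positive mean less the GFP-negative mean, with its SE from limma and with p-values adjusted over all 19938 genes by the Benjamini-Hochberg method and a threshold of 0.05.

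In 9 of the 10 genes the mean was lower in GFP-positive cells, as in 55.7% of all genes. None of the 10 passed limma's test without regard to the array number. None of the 10 was called lower, where 0.115% of all genes were, and none was called higher, where 1.55% were. An unadjusted p below 0.05 was found for 3 of the 10, Elovl3, Elovl5 and Thrsp, all of them lower, as for 3.79% of all genes in that direction. With the array number as a block, Elovl3 was the single member called, as lower (limma adjusted p = 0.0062). With that block, 0.14% of all genes were called lower and 1.64% higher. That call was lost with a floor at each array's median (adjusted p = 0.32 with the block). At a looser adjusted p below 0.1, Thrsp passed without the block, where 0.231% of all genes were called lower, and Elovl3, Elovl5 and Thrsp passed with it, where 0.336% were. The median log2 difference of the 10 genes was -0.52, against -0.03 over all genes. Without the GFP-positive 2 array that median was -0.16, without both arrays of number 2 it was -0.20, and without GFP-positive 3 it was -0.80.

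**Figure D1:**
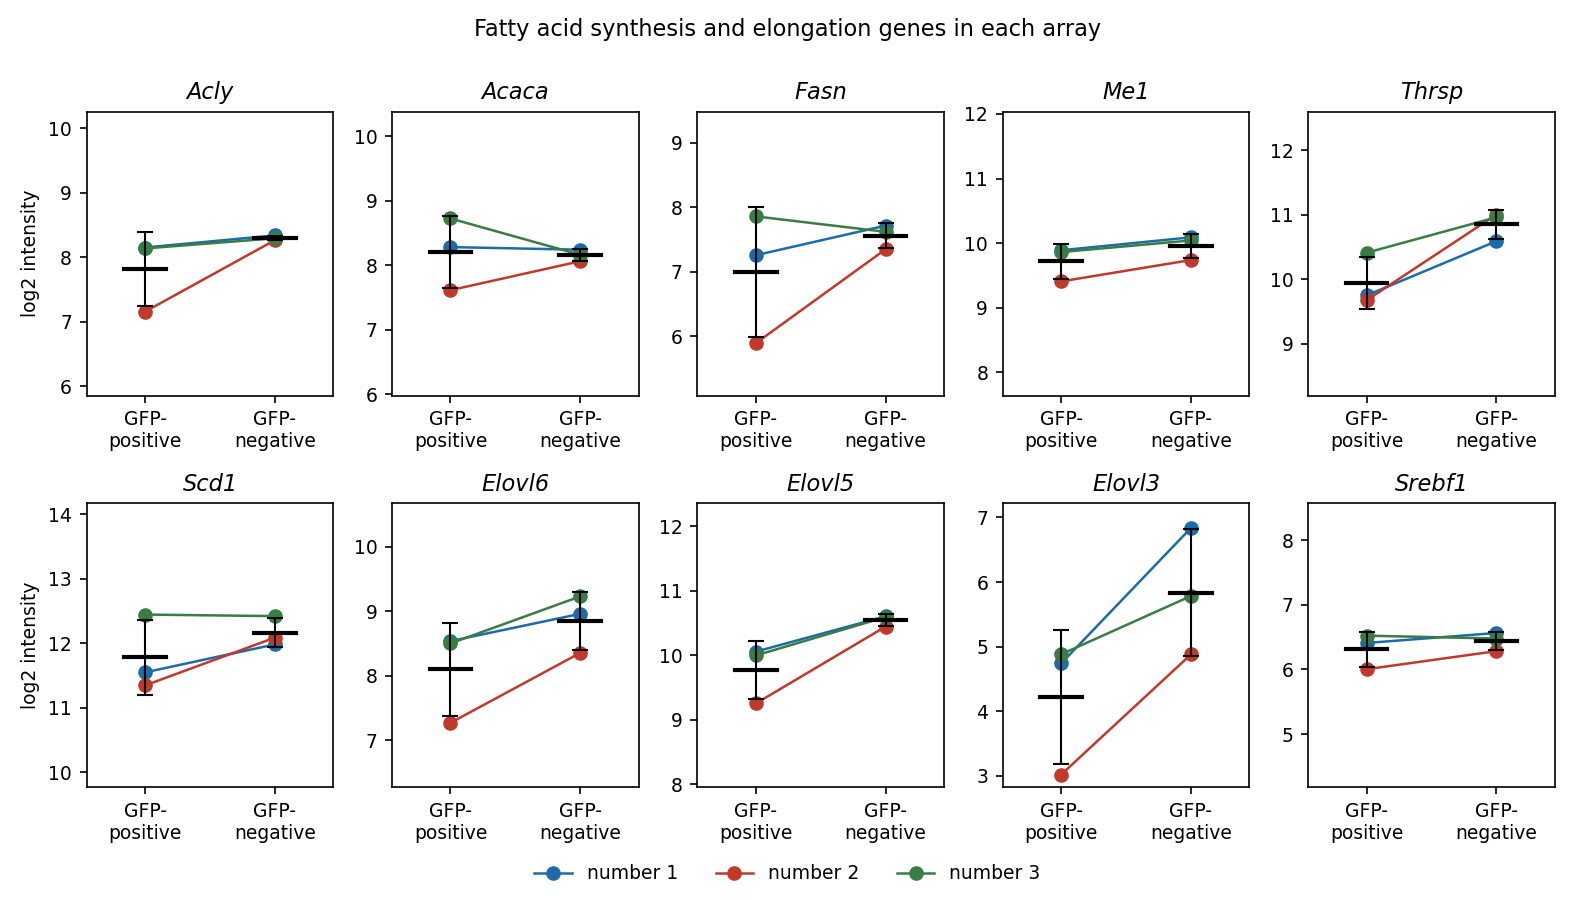
Log2 intensity (vertical axes, each spanning the same range) of the 10 genes in GFP-positive and GFP-negative arrays, with lines joining arrays of the same number, and black bars for the mean ± SD of 3 arrays. Number 2 has the lowest GFP-positive value in every panel, and the GFP-positive values of Elovl5, Acly and Thrsp all lie below the GFP-negative ones.

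Elovl3 (probe set 10463551) encodes an enzyme that lengthens saturated and monounsaturated acyl chains and is known for strong regulation in mouse brown fat and liver. It stood at 4.74, 3.02 and 4.88 in GFP-positive arrays 1, 2 and 3, against 6.84, 4.88 and 5.78 in GFP-negative arrays of the same numbers. Within each number the GFP-positive cells were lower, with differences of -2.10, -1.86 and -0.90, although the groups just overlapped because GFP-negative 2 was as low as GFP-positive 3. Its mean level was 4.21 ± 1.04 across GFP-positive arrays, against 5.83 ± 0.98 across GFP-negative arrays (SD, n = 3 each), a log2 difference of -1.62 ± 0.55 in limma (adjusted p = 0.34). With the block the same difference had a standard error of 0.23 and a 95% interval of -2.14 to -1.10. Its GFP-positive mean lay below the array medians through the 3.02 of GFP-positive 2, the one value of the gene under its own array's median. With values under an array's median raised to that median, the differences were -2.10, -0.16 and -0.90 in numbers 1, 2 and 3. Averaged over the numbers, the level was then 2.08-fold lower, an estimate and not a lower bound. With that floor the blocked difference was -1.06 ± 0.34 and did not pass (limma adjusted p = 0.32). A pseudocount of 16 with the block gave -1.06 ± 0.20, which did not pass either (limma adjusted p = 0.18). Blocked fits that left out number 1, 2 or 3 were added after the data were seen, as were those with the floor and the block. Without a floor they also called Elovl3 (limma adjusted p = 0.0050, 5.4e-05 and 9.0e-05, each with 2 numbers remaining). They reuse arrays of the full fit and keep fewer residual degrees of freedom, so they are not separate evidence. The block takes each number as a mouse, and the sex-linked genes above do not tell numbers 1 and 3 apart.

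Elovl5 (probe set 10587284), the elongase of polyunsaturated chains, had 10.06, 9.25 and 10.00 in GFP-positive arrays, against 10.60, 10.44 and 10.59 in GFP-negative arrays. All GFP-positive values lay below all GFP-negative ones, and the GFP-negative values were tightly grouped. The difference was -0.78 ± 0.21 in limma (adjusted p = 0.17, or 0.092 with the block), with an unadjusted 95% interval of -1.25 to -0.30. Elovl6 (probe set 10495993), which lengthens palmitate toward stearate, had 8.54, 7.27 and 8.50 in GFP-positive arrays, against 8.96, 8.35 and 9.23 in GFP-negative arrays. The groups overlapped, and GFP-positive was lower within each number. Its difference was -0.74 ± 0.34 in limma (adjusted p = 0.59, or 0.10 with the block).

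Thrsp (probe set 10565609) encodes a small nuclear and cytosolic protein induced by thyroid hormone and carbohydrate that promotes lipogenesis. It had 9.75, 9.68 and 10.41 in GFP-positive arrays, against 10.59, 11.00 and 10.96 in GFP-negative arrays, with no overlap. This 1.87-fold lower level (log2 difference -0.91 ± 0.21) came nearest to the threshold of the 10 genes without the block, with an adjusted p of 0.095 in limma, and 0.052 with the block. Unlike the elongases, Thrsp was not low in GFP-negative 2, which held its highest value. Without GFP-positive 3 it passed (-1.14, adjusted p = 0.019 in limma), but without any other single array it did not (limma adjusted p = 0.12 to 0.30). Non-overlap with GFP-positive below was seen for 3 of the 10 genes, Elovl5, Acly and Thrsp, where 6.98% of all genes showed it.

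The enzymes that carry citrate to palmitate had smaller mean differences, which were not tested against those of the elongases or Thrsp. Acly (probe set 10391146), which cleaves citrate to acetyl-CoA, had 8.15, 7.16 and 8.14 in GFP-positive arrays, against 8.34, 8.26 and 8.29 in GFP-negative arrays. The groups did not overlap, but most of the difference of -0.48 ± 0.25 (limma adjusted p = 0.65) came from number 2, at -1.11, while numbers 1 and 3 gave -0.19 and -0.16. Acaca (probe set 10394538), the cytosolic acetyl-CoA carboxylase that commits carbon to fatty acids, had 8.28, 7.61 and 8.72 in GFP-positive arrays, against 8.24, 8.06 and 8.16 in GFP-negative arrays. GFP-positive cells held both its highest and its lowest value, and the difference was 0.05 ± 0.25 (limma adjusted p = 0.98), with a 95% interval of -0.50 to 0.61. A dimmer Acaca probe set, 10379820, gave -0.26 ± 0.34, the opposite sign, and neither passed.

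Fasn (probe set 10393970), the synthase that assembles palmitate, had 7.26, 5.89 and 7.86 in GFP-positive arrays, against 7.71, 7.35 and 7.62 in GFP-negative arrays. The 3 numbers did not share a direction, with differences of -0.46, -1.45 and 0.24 in numbers 1, 2 and 3. The mean difference was -0.56 ± 0.40 (limma adjusted p = 0.81), and the GFP-positive SD was 1.01, against 0.19 in GFP-negative cells (n = 3 each). Scd1 (probe set 10467979), the desaturase that makes oleate and palmitoleate from saturated chains, had 11.55, 11.35 and 12.44 in GFP-positive arrays, against 11.98, 12.09 and 12.42 in GFP-negative arrays. The groups overlapped through number 3, where both fractions were high, and the difference was -0.38 ± 0.27 (limma adjusted p = 0.80).

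Me1 (probe set 10595480), the malic enzyme that supplies cytosolic NADPH, had 9.89, 9.41 and 9.86 in GFP-positive arrays, against 10.09, 9.74 and 10.04 in GFP-negative arrays. It was lower in GFP-positive cells within each number by a similar amount, -0.20, -0.33 and -0.18, and a second probe set, 10405753, gave a mean difference of -0.23, against -0.24 here. The difference did not pass (limma adjusted p = 0.82). Srebf1 (probe set 10386473), the transcription factor gene, had 6.411, 6.004 and 6.524 in GFP-positive arrays, against 6.57, 6.28 and 6.48 in GFP-negative arrays. Its difference of -0.13 ± 0.17 (limma adjusted p = 0.92) had a 95% interval of -0.51 to 0.25. The array reads the summed transcripts of Srebf1 and says nothing of the processing of its protein.

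**Figure D2:**
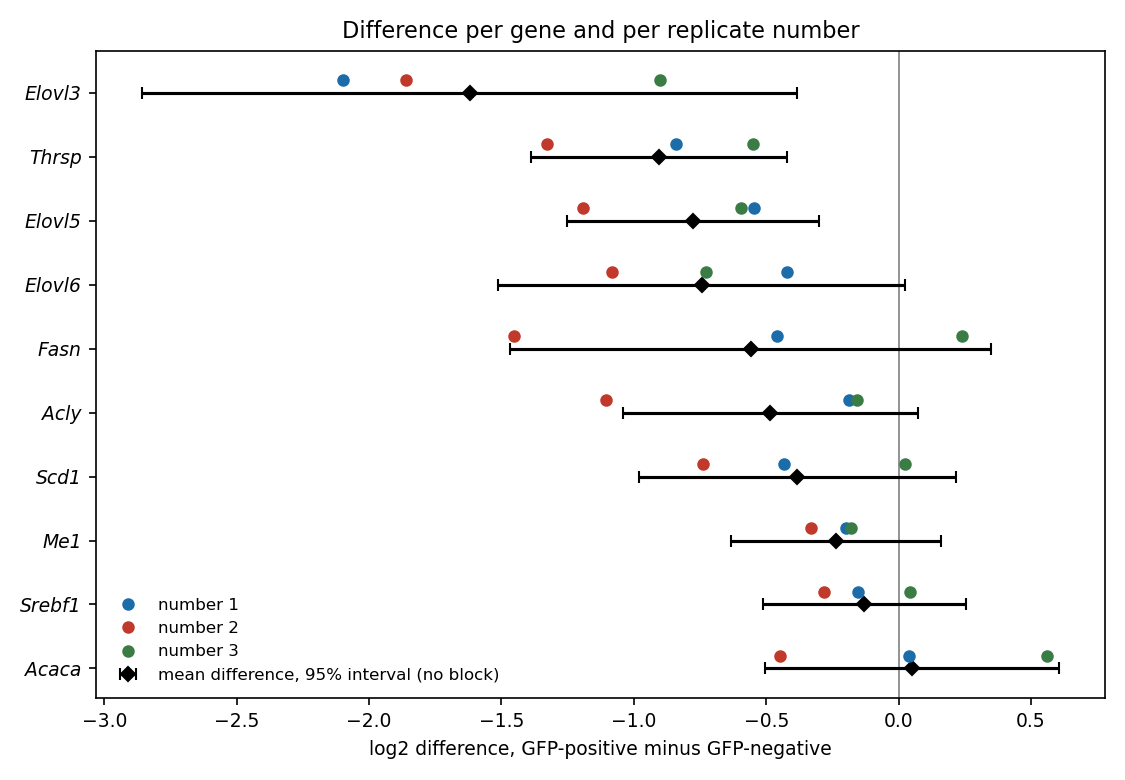
Log2 difference, GFP-positive minus GFP-negative (horizontal axis), of each gene within numbers 1, 2 and 3 (coloured points) and over all arrays (diamond, with the unadjusted 95% interval of the fit without the block). Elovl3 lies farthest from 0, 6 genes lie below 0 in all 3 numbers, and number 2 lies lowest in every gene but Elovl3.

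Array by array, what the 10 genes shared was a low GFP-positive 2. It held the lowest of the 6 values for 10 of the 10 genes, and GFP-positive 1 and 3 and the GFP-negative arrays for none. The highest value was spread over 4 arrays, GFP-positive 3 for 3 genes and GFP-negative 1, 2 and 3 for 5, 1 and 1. Among GFP-positive arrays number 2 was the lowest for 10 of 10 members, as for 35.2% of all genes, and among GFP-negative arrays for 8 of 10, as for 36.8% of all genes. Averaged over the 10 genes after each was centred on its own mean, the arrays stood at -0.11, -0.91 and 0.16 in GFP-positive 1, 2 and 3, against 0.42, 0.07 and 0.38 in GFP-negative 1, 2 and 3. GFP-positive 3 thus stood above GFP-negative 2. By the median over the 10 centred genes, GFP-positive 1, 2 and 3 stood at 0.0036, -0.81 and 0.053. GFP-negative 1, 2 and 3 stood at 0.27, -0.013 and 0.39, so GFP-positive 1 also stood above GFP-negative 2. Within numbers 1, 2 and 3 the median difference was -0.43, -1.10 and -0.17, with 9, 10 and 6 of the 10 genes below 0, against medians over all genes of -0.01, 0.02 and -0.06. The 6 genes lower in all 3 numbers were Elovl3, Elovl5, Elovl6, Acly, Me1 and Thrsp, where 15.3% of all genes were. In a fit that weights arrays by their spread over all genes, GFP-positive 2 had a weight of 0.55, against 2.06 and 1.14 for GFP-positive 1 and 3 and 1.70, 0.83 and 0.55 for GFP-negative 1, 2 and 3. The median of the 10 genes in that fit was -0.34.

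Other genes of the pathway did not pass in either fit. Of 84 measured genes in 4 lists of related function, 68 lay below 0 and 16 above, where 55.7% of all genes lay below 0, with a median log2 difference of -0.21, and none was called in either direction. Among 21 further enzymes of chain synthesis, elongation and desaturation, 17 lay below 0 (median -0.18), and 6 were at or below the array median on all arrays. The largest differences there were those of Hacd3, a dehydratase of the elongation cycle (-0.59 ± 0.20, limma adjusted p = 0.33), and Fads2, a desaturase of polyunsaturated chains (-0.57 ± 0.22, limma adjusted p = 0.46). Fads2 had 10.11, 9.35 and 10.26 in GFP-positive arrays, against 10.46, 10.53 and 10.43 in GFP-negative arrays. The groups did not overlap, and GFP-positive 2 was again the lowest, but Fads2 was named for the size of its difference. Non-overlap with GFP-positive below was seen for 5 of the 21 genes and for 6.98% of all genes.

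**Figure D3:**
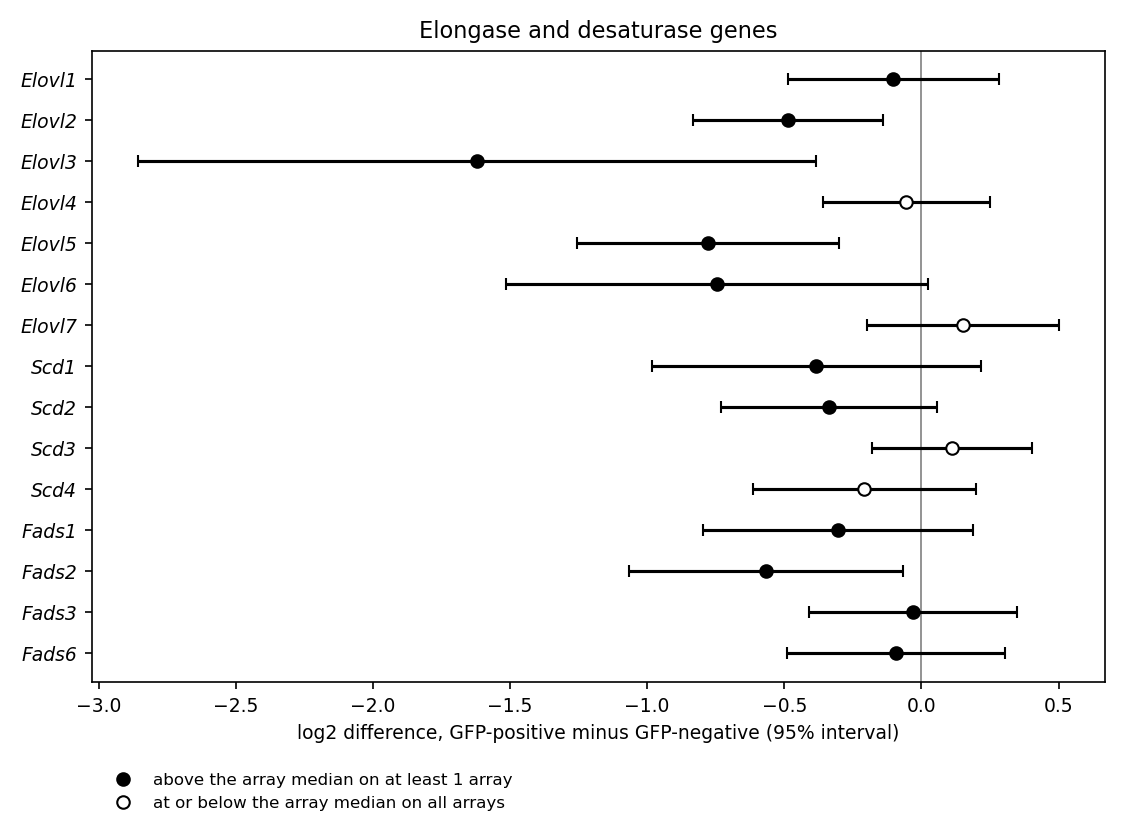
Log2 difference, GFP-positive minus GFP-negative, with unadjusted 95% intervals (horizontal axis) of 7 elongase and 8 desaturase genes, filled where the gene exceeded the array median on at least 1 array. In the fit without the block, the intervals of Elovl2, Elovl3, Elovl5 and Fads2 leave out 0, and none of the 15 genes passed after adjustment.

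Of the 15 elongase and desaturase genes, 13 lay below 0, where 55.7% of all genes did. The unadjusted intervals of 4 left out 0, all of them lower. At an unadjusted p below 0.05 in limma, 3.79% of all genes were lower. Elovl3 and Elovl5, already counted among the 10 genes, are among the 4. One of the 4, the polyunsaturated elongase Elovl2, was picked out after its values were seen. It had 10.91, 10.51 and 10.86 in GFP-positive arrays, against 11.35, 11.25 and 11.15 in GFP-negative arrays, a difference of -0.49 ± 0.15 (limma adjusted p = 0.28). Elovl4, Elovl7, Scd3 and Scd4 were at or below the array median on all arrays, so their differences near 0 are those of dim probe sets.

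In the list of precursor and NADPH supply, 12 of 15 measured genes lay below 0 (median -0.25). Acss2, which makes acetyl-CoA from acetate, had the largest difference (-0.74 ± 0.23, limma adjusted p = 0.28), with 7.37, 7.35 and 7.60 in GFP-positive arrays, against 7.80, 8.75 and 7.98 in GFP-negative arrays. Mid1ip1, whose protein partners that of Thrsp and promotes acetyl-CoA carboxylase assembly, followed (-0.59 ± 0.17, limma adjusted p = 0.21), with 7.08, 6.50 and 6.66 in GFP-positive arrays, against 7.27, 7.31 and 7.44 in GFP-negative arrays. Neither gene overlapped between the groups, but both were named for the size of their differences. Non-overlap with GFP-positive below was seen for 6 of the 15 genes, where 6.98% of all genes showed it. Of 25 regulators, 16 lay below 0 (median -0.19), led by the nuclear receptor gene Pparg (-0.64 ± 0.20, limma adjusted p = 0.25) and by Insig2, which holds sterol regulatory element-binding proteins in the endoplasmic reticulum (-0.61 ± 0.19, limma adjusted p = 0.25). Of 23 genes of acyl-CoA use and triglyceride assembly, all 23 lay below 0 (median -0.23), led by the fatty acid translocase gene Cd36 (-0.68 ± 0.28, limma adjusted p = 0.51) and by Gpam, the first acyltransferase of glycerolipid synthesis (-0.47 ± 0.22, limma adjusted p = 0.60). The last of these lists had a median of -0.30, -0.54 and 0.05 within numbers 1, 2 and 3.

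Markers of cell types and hepatocyte zones were read beside these values. Of 9 pericentral markers, which mark hepatocytes around the central vein, 9 lay below 0, where 55.7% of all genes did. Their summed intensity ran from 9508 to 10213 in GFP-positive and from 13117 to 14662 in GFP-negative arrays. Called lower were 4 of the 9, where 0.115% of all genes were. The 4 were the glutamate transporter gene Slc1a2 (-2.24 ± 0.24, limma adjusted p = 0.00073), the ornithine aminotransferase gene Oat (-1.24 ± 0.15, limma adjusted p = 0.0019), Cyp7a1 of bile acid synthesis (-0.98 ± 0.17, limma adjusted p = 0.017) and Glul. Glul, glutamine synthetase, had 9.02, 8.35 and 9.22 in GFP-positive arrays, against 10.29, 10.43 and 10.31 in GFP-negative arrays (-1.48 ± 0.21, limma adjusted p = 0.0055). None of 5 measured periportal markers was called, with 4 above 0 (median 0.22) and sums of 6610 to 7040 in GFP-positive and 5391 to 8502 in GFP-negative arrays. None of the 8 hepatocyte markers was called, but all 8 lay below 0 (median -0.14), where 55.7% of all genes did. Their median was -0.15, -0.29 and 0.03 within numbers 1, 2 and 3. The part of zone in the values of the 10 genes was not tested, and in sorted bulk samples fewer cells of a type and less RNA per cell cannot be told apart.

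Adipocytes also express most of the 10 genes. Of 8 measured adipocyte markers none was called, their summed intensity ran from 164 to 183 in GFP-positive and from 160 to 185 in GFP-negative arrays, and Adipoq, Lep, Cidea and Ucp1 were at or below the array median on all arrays. The sum of 6 endothelial markers ran from 218 to 224 in GFP-positive and from 237 to 331 in GFP-negative arrays. For 6 Kupffer cell markers it was 108 to 117 in GFP-positive and 122 to 174 in GFP-negative arrays, and for 6 stellate cell markers 221 to 263 in GFP-positive and 310 to 349 in GFP-negative arrays. These 3 sums were smaller in GFP-positive arrays, but their genes did not all go that way. Of 6 markers per list, 4 endothelial, 3 Kupffer cell and 5 stellate cell ones lay below 0, where 55.7% of all genes did. Cd5l, Adgre1, Timd4 and Des were at or below the array median on all arrays. The Kupffer cell gene Vsig4 read 5.98 in GFP-negative 2, against 2.81 and 3.83 in GFP-negative 1 and 3. Among the genes of these 3 lists, the Kupffer cell gene Clec4f alone was called lower (limma adjusted p = 0.032, or 0.077 with the block). Overlapping sums were seen for 4 cholangiocyte markers (GFP-positive 104 to 113, GFP-negative 104 to 116), 2 erythroid markers (GFP-positive 92.8 to 141, GFP-negative 97.4 to 197) and 4 lymphoid markers (GFP-positive 75.9 to 81.9, GFP-negative 64.4 to 95.4). Their part in the values of the 10 genes was not tested.

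**Figure D4:**
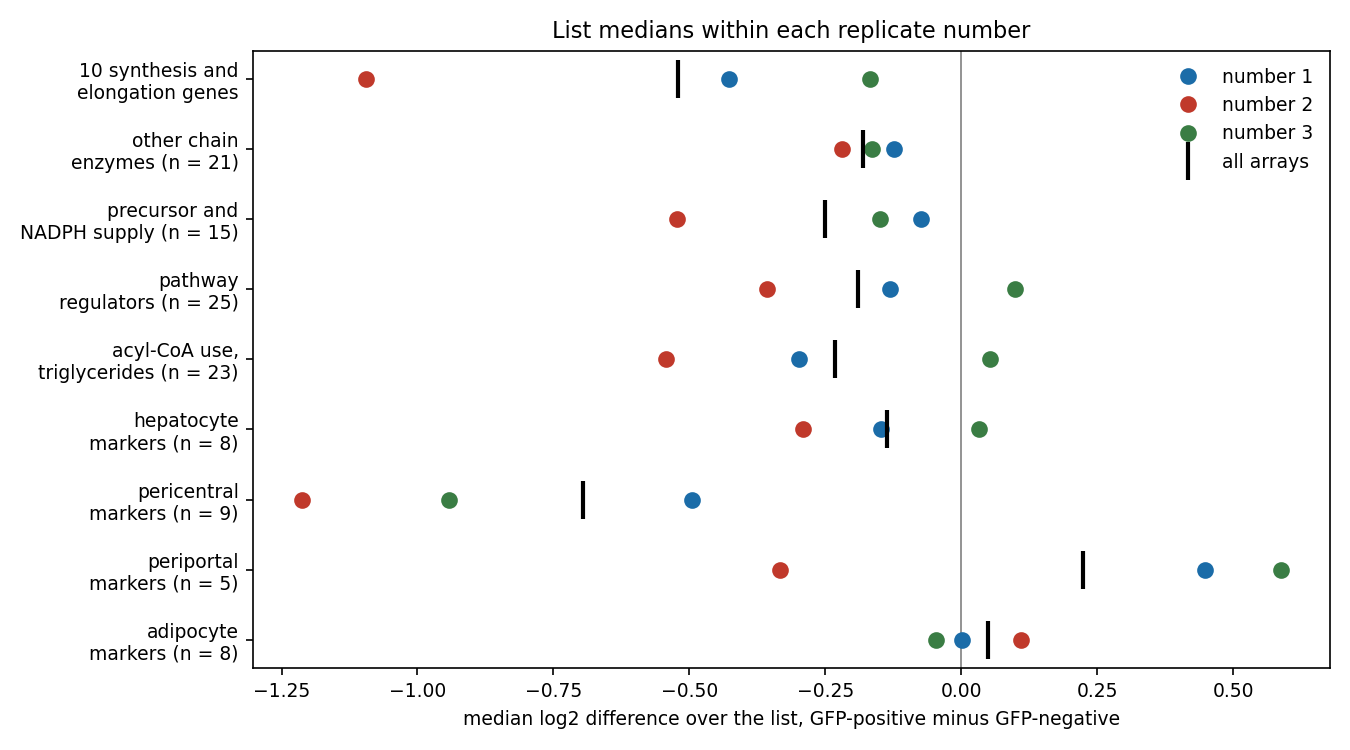
Median log2 difference, GFP-positive minus GFP-negative (horizontal axis), of the 10 genes, 4 related lists and 4 marker lists within numbers 1, 2 and 3 (points) and over all arrays (black ticks). The 10 genes stand at -1.10 in number 2 and -0.17 in number 3, and the pericentral markers lie below 0 in all 3 numbers.

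The genes whose centred profile over the 6 arrays lay nearest to that of Elovl3, among 11331 genes above the overall median, were Slc25a30, Alas1, Arrdc3, Nr0b2 and Pigp, at root mean square distances of 0.50 to 0.57 on the log2 scale against a median of 1.15. Alas1 encodes the first enzyme of heme synthesis and Nr0b2 an orphan nuclear receptor of bile acid feedback. Alas1 had 8.80, 7.26 and 8.61 in GFP-positive arrays, against 9.39, 8.61 and 9.11 in GFP-negative arrays, low in number 2 of both groups as Elovl3 was. Nearest to the average profile of the 10 genes were Arhgap32, Stbd1, Tle1, Mtfp1 and Acacb, at distances of 0.076 to 0.11 against a median of 0.46. Acacb, the mitochondrial-membrane acetyl-CoA carboxylase, had 6.26, 5.52 and 6.56 in GFP-positive arrays, against 6.86, 6.60 and 6.54 in GFP-negative arrays (-0.56 ± 0.24, limma adjusted p = 0.56). Of the 10 genes themselves, Acly (0.13) and Elovl5 (0.16) lay closest to their average and Elovl3 (0.76) farthest from it.

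Promoter windows of the 10 genes were read for 4 short motifs, and no link between motifs and array values was tested. RefSeq windows on the GRCm38.p6 build, from 250 bases before to 50 bases after an annotated start, were at hand for 8 of the 10 genes, as 11 windows, and Elovl3 and Scd1 were not matched. The motifs were the core letters of a sterol regulatory element (TCACNCCAC), the E-box (CACGTG, the same on both strands), the CCAAT box (CCAAT) and the GC box (GGGCGG), each searched on both strands. The windows shown are those of the 3 genes without overlap between the groups (Thrsp, Elovl5 and Acly), of Fasn, which spread most within GFP-positive cells after Elovl3, and of Acaca, the gene with a difference above 0. Capitals mark motif matches.
Thrsp, chr7:97417501-97417800, strand -: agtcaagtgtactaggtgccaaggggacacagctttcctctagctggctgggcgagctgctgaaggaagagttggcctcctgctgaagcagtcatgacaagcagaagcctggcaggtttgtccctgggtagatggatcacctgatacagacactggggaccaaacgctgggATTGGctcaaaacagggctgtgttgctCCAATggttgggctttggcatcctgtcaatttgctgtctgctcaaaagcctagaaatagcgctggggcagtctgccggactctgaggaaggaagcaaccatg
Elovl5, chr9:77917115-77917414, strand +: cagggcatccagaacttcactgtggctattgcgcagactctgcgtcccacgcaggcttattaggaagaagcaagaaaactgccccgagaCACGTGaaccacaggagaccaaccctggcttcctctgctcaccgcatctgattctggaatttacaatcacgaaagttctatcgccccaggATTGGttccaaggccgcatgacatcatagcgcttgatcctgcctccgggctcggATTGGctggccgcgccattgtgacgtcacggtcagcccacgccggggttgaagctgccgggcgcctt
Acly, chr11:100527951-100528250, strand -: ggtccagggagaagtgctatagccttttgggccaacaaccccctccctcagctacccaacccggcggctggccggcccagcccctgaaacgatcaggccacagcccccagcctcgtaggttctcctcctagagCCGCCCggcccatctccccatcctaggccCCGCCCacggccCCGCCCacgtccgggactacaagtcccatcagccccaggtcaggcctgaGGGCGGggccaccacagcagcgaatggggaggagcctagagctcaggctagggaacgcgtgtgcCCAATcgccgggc
Fasn, chr11:120824498-120824797, strand -: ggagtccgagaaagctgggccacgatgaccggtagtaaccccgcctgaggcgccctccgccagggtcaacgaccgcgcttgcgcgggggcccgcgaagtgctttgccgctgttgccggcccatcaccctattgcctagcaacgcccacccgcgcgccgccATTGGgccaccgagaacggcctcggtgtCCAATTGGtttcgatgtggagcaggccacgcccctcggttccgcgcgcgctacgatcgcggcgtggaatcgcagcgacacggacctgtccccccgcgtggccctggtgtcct
Acaca, chr11:84195188-84195487, strand +: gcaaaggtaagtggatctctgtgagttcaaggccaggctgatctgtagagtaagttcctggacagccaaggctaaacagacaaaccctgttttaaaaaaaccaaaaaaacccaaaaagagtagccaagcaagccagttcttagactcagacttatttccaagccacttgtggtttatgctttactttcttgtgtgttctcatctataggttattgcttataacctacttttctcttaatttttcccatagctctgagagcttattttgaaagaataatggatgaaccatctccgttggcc

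No window of the 8 genes held the sterol regulatory element letters, which 1.24% of 32851 windows of the same length held. The E-box was found in Elovl5, at -161, counted from the annotated start as 0 to the first base of the match, and in 7.15% of all windows. CCAAT boxes were found in 7 of the 11 windows, those of Thrsp, Elovl5, Acly, Fasn, Me1 and Srebf1, and in 37.4% of all windows. Thrsp held them at -79 and -52, Elovl5 at -71 and -17, and Fasn at -90, -62 and -59, the last 2 overlapping on opposite strands. GC boxes were found in 4 of the 11 windows, those of Acly, Me1 and Srebf1, and in 35.7% of all windows. The Acaca and Elovl6 windows held none of the 4 motifs. A match is a run of letters and not a measured site, and a window without one says only that these letters are not in it.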

How the data were processed

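Total RNA of sorted liver cells was amplified, labelled and hybridised to arrays, per the labels' protocols. The deposited intensities, 1 per probe set and array, were made by the authors with RMA, per the submitters' processing notes, with version and settings not given in the sources used here. The deposited intensities are linear (1.62 to 15836), so log2 was taken, with no further normalization. For 19938 genes, the brightest probe set (by mean over arrays) stood for the gene, named by Entrez identifier in a GRCm38 gene table.

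Groups were compared with limma 3.58.1 under R 4.3.3 (lmFit, then eBayes, with 4 residual degrees of freedom), adjusted over all genes. The replicate number as a block was the alternative (2 residual degrees of freedom). Reading a number as a mouse rests on the design text, which takes both fractions from the same livers, and on Xist. The labels do not state it, and the sex-linked genes do not tell numbers 1 and 3 apart. The correlation across genes between the deviations of same-numbered arrays was 0.20, 0.06 and -0.05. The fits were tested on simulated data with known changes, 50 genes per size. Changes of 0.5 on the log2 scale were called in 0% of genes by either fit. Changes of 1 were called in 46% without the block and 8% with it, and changes of 2 in 96% and 82%. A gene that did not pass may thus still differ by such amounts. No difference between mice was simulated, so this cannot show what the block gains or loses in these data. The labels call the arrays biological replicates.

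The 10 genes, the lists and the tests were chosen with earlier results of these data known. Named were all 10 genes, from each pathway list the called genes and the 2 with the largest absolute difference, the 5 nearest profiles, and the called markers. Of 90 genes in the 4 pathway lists, 6 were not matched and not analysed here. Tables used pandas 2.3.3 and numpy 2.4.6 in Python 3.11.15, and plots matplotlib 3.10.9.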

Additional observations from a re-analysis of the deposited data

How the results depend on the processing

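The count of the 10 genes called lower was 0 without the block and 1 with the replicate block (Elovl3). It was 0 again with the block and the floor at the array medians, and with the block and a pseudocount of 16. The block together with leaving out both arrays of number 1, 2 or 3 gave 1, 1 and 2 (Elovl3, with Thrsp added in the last), settings chosen after the data were seen, as were both before them and the block at an adjusted p below 0.1, which gave 3 (Elovl3, Elovl5 and Thrsp). An adjusted p below 0.1 without the block gave 1 (Thrsp), and leaving out single arrays or both arrays of a number gave 0 to 1. Quantile normalization, median centring, leaving out low genes, mean probe sets, single probe sets, an intensity trend, array weights and a pseudocount of 16 each gave 0, and the count called higher was 0 in all 25 settings. The median difference stayed below 0 in all 18 settings, from -0.80 to -0.16. Each lay within 0.48 of the reported -0.52, where 0.48 is the SD of the 3 within-number medians. That span is nearly as wide as the value itself, so lying within it says little. Single probe sets, an intensity trend, leaving out low genes, mean probe sets and the floor gave the same -0.52. These settings change the differences of few or none of the 10 genes. Acaca (0.05) turned to -0.11 with the mean of its probe sets and to -0.20 with the block and without number 3, and ran from -0.21 (without GFP-positive 3) to 0.35 (without GFP-positive 2) when arrays were left out. Srebf1 ran from -0.24 (without GFP-positive 3) to 0.024 (without GFP-positive 2). The remaining members stayed below 0 in all 26 settings, but without GFP-positive 2 several shrank by over 1.5 times, Fasn to -0.0039, Me1 to -0.081, Acly to -0.16, Scd1 to -0.17, Elovl6 to -0.33 and Elovl3 to -1.02. Scd1 was -0.25 without GFP-negative 3, and without GFP-positive 3 Fasn was -0.99 and Scd1 -0.71. The adjusted p of Elovl3 ran from 5.4e-05 to 0.74, with every value below 0.05 coming from a fit with the block and no floor or pseudocount, and these rest on the reading of the numbers as mice. With all arrays and the 0.05 threshold, the block changed no other call among the 10 genes. For Elovl3 dim signal limits the size, which was -1.06 with the pseudocount of 16 and also -1.06 with values under the array medians raised to them.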
